A study of Mus musculus with 48 samples.

Results

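RNA of hippocampal neurons from mice labelled Setd1b cKO, a conditional knockout of the histone methyltransferase gene Setd1b, was set against the same material from control mice. The libraries were chosen by their titles and genotype labels and comprise 6 of the 48 libraries of the series, 3 labelled cKO and 3 labelled Control. All animals were adult C57BL/6J mice aged 4 to 6 months and the material is labelled hippocampal CA neurons, the pyramidal neurons and their neighbours in the cornu ammonis. The protocol shared by all samples names whole tissue as the source of RNA. That protocol gives total RNA isolated with TRIZOL and libraries made with the TruSeq RNA v2 kit. Since it names whole tissue, whether it describes the neuron libraries is not known. The labels do not name the Cre driver, the deleted exons, the sex of the animals or the way the neurons were separated from other cells, and they do not say whether each library stands for 1 animal, so p-values measure only the spread between these libraries, which may be technical.

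SETD1B is the catalytic subunit of a COMPASS complex that places methyl groups on lysine 4 of histone H3. The trimethylated form, H3K4me3, marks the starts of active and poised genes, and in neurons broad H3K4me3 domains lie over genes that give the cell its identity. The complex also holds CXXC1, a protein that binds unmethylated CpG dinucleotides. In the mouse, Setd1a, Kmt2a, Kmt2b, Kmt2c and Kmt2d encode the other catalytic subunits of this family.

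The libraries held 55735204 to 69071100 counts over 48709 gene IDs, and 19622 genes had enough counts to be tested. The first principal component, with 39.6% of the variance, placed the 3 libraries labelled cKO on one side and the 3 labelled Control on the other. On the second, with 27.7%, cKO replicate 3 and Control replicate 1 stood apart from the other 4 libraries. Mitochondrial genes took 0.0081 to 0.0144% of the counts, against 3.41 to 7.05% in RNA libraries of the whole CA region, which carry the same protocol text. Marker genes of other cell types were low beside those of neurons. The 7 pan-neuronal markers summed to 4136 to 4875 CPM, the count scaled to the size of its library, the 8 astrocyte markers to 33.9 to 44.3 CPM, the 8 microglia markers to 24.8 to 28.9 CPM and the 7 endothelial markers to 3.19 to 4.69 CPM. The 10 markers of inhibitory neurons summed to 643.6 to 805.5 CPM, so the material was not limited to excitatory cells.

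The targeted gene was examined first. Setd1b (ENSMUSG00000038384, chr5:123142040-123168630, GRCm38) had levels of 65.5, 50.2 and 47.8 CPM under the Control label and of 60.1, 61.99 and 71.6 CPM under the cKO label. The groups overlapped. The difference of means was 0.26 on the log2 scale, higher in the libraries labelled cKO (exact two-sided permutation test, p = 0.3, where 3 against 3 cannot give less than 0.1). These are counts over the whole gene, in which the loss of single exons is not measured. They therefore do not check the genotype, and the groups are called by their labels throughout. In RNA of the whole CA region, from 6 libraries of each label, Setd1b was higher in those labelled cKO by 0.59 ± 0.11 (log2 ± SE, edgeR adjusted p = 0.00415). The other 9 H3K4 methyltransferase genes of the list used were between -0.05 and 0.15 on the log2 scale and none was called by edgeR (0 at an unadjusted p under 0.05, and 0 by DESeq2). Setd1a, the closest relative, stood at 52.4 ± 6.71 CPM (SD, n = 3) in Control and 50.5 ± 4.27 CPM (SD, n = 3) in cKO. None of 13 other COMPASS subunit genes and none of 7 H3K4 demethylase genes was called by edgeR either, with 1 and 0 at an unadjusted p under 0.05 and 0 and 0 called by DESeq2.

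More genes were lower than higher in the libraries labelled cKO. At an adjusted p under 0.05 in edgeR's quasi-likelihood test, 393 genes were lower and 146 were higher, which is 2.0% and 0.744% of the genes tested (2.75% together). The lower genes made up 72.9% of the calls, while 46.5% of all tested genes had a negative log2 fold change and the median over all tested genes was 0.02. The median log2 fold change was -0.87 among the lower genes (quartiles -1.29 and -0.63) and 0.72 among the higher genes (quartiles 0.56 and 1.03). A change of at least 2-fold was seen in 161 lower and 39 higher genes, and of at least 4-fold in 30 lower and 6 higher genes. In all 539 called genes the 3 libraries of one label lay entirely above the 3 of the other. The same held for 23.9% of all tested genes, with cKO below in 12.4% and above in 11.4%. The number of calls was smaller when a library was left out. Without cKO replicate 1 there were 186 lower and 21 higher genes, without cKO replicate 2 there were 207 and 52, without Control replicate 3 there were 233 and 35, and without Control replicate 2 there were 268 and 43.

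**Figure D1:**
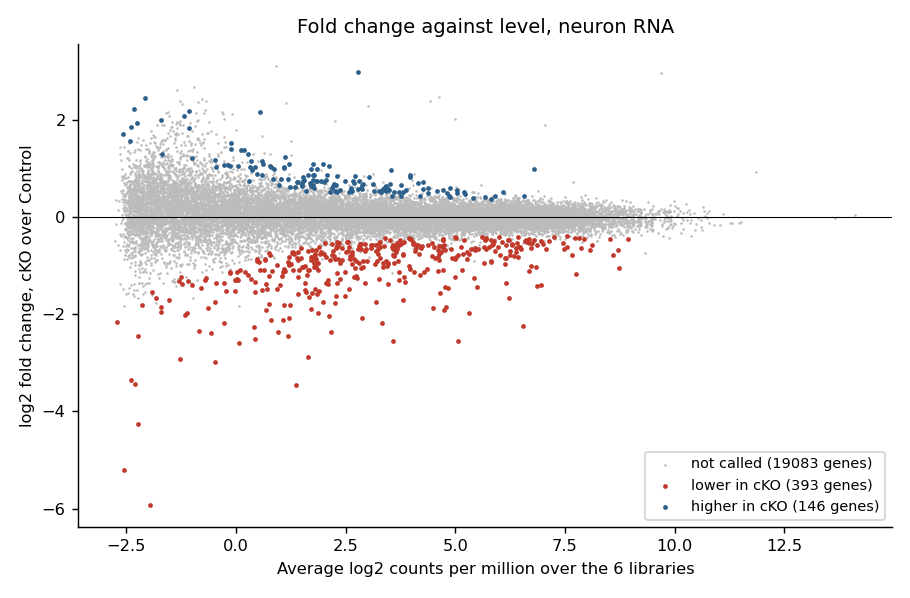
Each point is 1 of the 19622 tested genes, with its average log2 CPM over the 6 neuron libraries on the x axis and its fitted log2 fold change, cKO over Control, on the y axis; red points are the 393 genes called lower and blue points the 146 called higher. The lower genes reach across all levels, while the higher genes are sparse at the high end; the fitted values of the lowest points, with almost no counts in cKO, depend on the prior count of the fit.

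Among called genes with an average log2 CPM of at least 1, the largest decrease was in Ogn, which encodes osteoglycin, a small leucine-rich proteoglycan of the extracellular matrix. Ogn stood at 3.41, 5.66 and 4.898 CPM in Control and at 0.4203, 0.312 and 0.553 CPM in cKO. The highest cKO library was far below the lowest Control library, and the fold change was -3.45 ± 0.25 (log2 ± SE, edgeR adjusted p = 1.32e-04). Npr1, the guanylate cyclase receptor for natriuretic peptides, stood at 6.43, 4.97 and 4.75 CPM in Control and 0.811, 0.655 and 0.731 CPM in cKO, a fold change of -2.87 ± 0.17 (edgeR adjusted p = 4.83e-05). Kctd4, which encodes a protein with a BTB/POZ tetramerisation domain, stood at 45.4, 71.5 and 53.8 CPM against 9.79, 10.2 and 8.92 CPM, a fold change of -2.56 ± 0.16 (edgeR adjusted p = 4.83e-05). In all 3 genes every cKO library was below every Control library. Lrrc10b, a leucine-rich repeat gene, was at 17.1% of its Control mean and Capn3, which encodes a calcium-dependent protease, at 22.1%. Neurod6, a basic helix-loop-helix factor of forebrain excitatory neurons, stood at 134, 178 and 148 CPM in Control and 34.2, 31.9 and 30.9 CPM in cKO. It fell by 2.25 on the log2 scale (SE 0.11, edgeR adjusted p = 2.96e-05) and was the only one of the 14 largest decreases with more than 100 CPM in Control. The remaining members of the 14 were 2 receptor genes, Npsr1 and Sstr4, which are described with their family, and 6 non-coding or unnamed transcripts (9430053O09Rik, 6330420H09Rik, Gm38071, Gm34583, 9430092D12Rik and Gm44266), with log2 fold changes from -1.98 to -2.37. Without cKO replicate 1, Gm38071 lost its call.

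**Figure D2:**
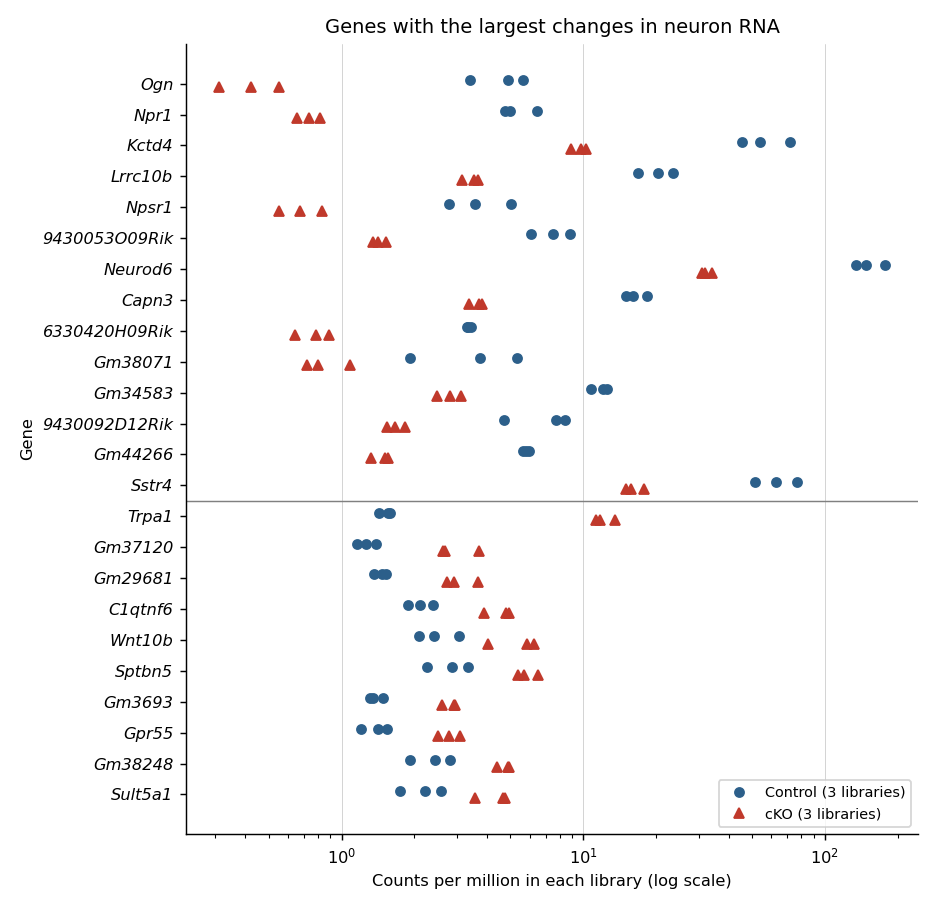
CPM of each neuron RNA library on a log axis for the 14 genes with the largest decreases (above the grey line) and the 10 with the largest increases (below it), among called genes with an average log2 CPM of at least 1; circles are the 3 Control libraries and triangles the 3 cKO libraries. Ogn spans 3.41 CPM at its lowest in Control against 0.553 at its highest in cKO, and Trpa1 is the increase with the widest gap between the labels.

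The DNA just before the start of 4 of these genes is shown because SETD1B complexes carry a CpG-binding subunit, with CpG dinucleotides in capitals. They are the first 2 lower and the first 2 higher genes of the ranking that have a RefSeq promoter entry (build GRCm38.p6), read 5′ to 3′ on the gene's strand and cut where the annotated gene begins. Ogn lies on the plus strand (chr13:49607765-49608014) and Npr1 on the minus strand (chr3:90465929-90466116), while Gm37120 lies on the plus strand (chr1:132102347-132102596) and Gm29681 on the minus strand (chr5:131414719-131414968).
Ogn: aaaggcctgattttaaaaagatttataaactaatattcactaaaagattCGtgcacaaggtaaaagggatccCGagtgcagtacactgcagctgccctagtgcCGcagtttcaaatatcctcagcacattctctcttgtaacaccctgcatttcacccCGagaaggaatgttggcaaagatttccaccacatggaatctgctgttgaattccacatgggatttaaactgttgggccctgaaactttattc
Npr1: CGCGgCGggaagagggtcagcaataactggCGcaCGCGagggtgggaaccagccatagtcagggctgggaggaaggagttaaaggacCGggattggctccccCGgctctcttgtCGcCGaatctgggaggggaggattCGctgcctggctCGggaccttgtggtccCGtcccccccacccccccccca
Gm37120: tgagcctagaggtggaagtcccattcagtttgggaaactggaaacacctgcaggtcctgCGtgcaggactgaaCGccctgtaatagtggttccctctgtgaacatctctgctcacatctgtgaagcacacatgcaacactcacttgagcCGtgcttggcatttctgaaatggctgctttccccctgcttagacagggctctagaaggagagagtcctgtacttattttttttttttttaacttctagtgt
Gm29681: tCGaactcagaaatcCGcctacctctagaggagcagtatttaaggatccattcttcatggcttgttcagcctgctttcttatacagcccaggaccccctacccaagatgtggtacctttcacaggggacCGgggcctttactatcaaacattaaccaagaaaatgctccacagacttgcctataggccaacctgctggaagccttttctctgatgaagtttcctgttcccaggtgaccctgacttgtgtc
The Ogn sequence holds 4 CpG in 250 bases and the Npr1 sequence 13 in 188 bases. The 2 higher transcripts, both long non-coding RNAs, hold 3 CpG each in 250 bases. Over the 27025 symbols in the promoter table, the 250 bases before the start held a median of 6 CpG (quartiles 2 and 16), and 91.7% held at least 1. Only 67.4% of the lower and 62.3% of the higher genes had an entry, so the groups were not compared for CpG content.

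Receptors for neuropeptides and peptide hormones included several of the larger decreases. Of 39 tested members 9 fell and none rose, a share of 23.1% against 2.0% of all tested genes. The median log2 fold change over the list was -0.30 against 0.02 over all genes. This list and those below were chosen with earlier results of these data known, so their shares describe the calls and carry no test. Sstr4, a somatostatin receptor of hippocampal pyramidal cells, stood at 76.6, 62.9 and 51.5 CPM in Control and 15.8, 15.1 and 17.8 CPM in cKO. It fell by 1.97 on the log2 scale (SE 0.14, edgeR adjusted p = 1.29e-04), and Sstr3, a somatostatin receptor of neuronal cilia, fell by 0.85 (SE 0.09, edgeR adjusted p = 0.00126). Npsr1, the neuropeptide S receptor, stood at 2.78, 5.04 and 3.56 CPM against 0.675, 0.826 and 0.553 CPM and fell by 2.46 (SE 0.25, edgeR adjusted p = 8.38e-04). Mc4r, the melanocortin receptor known for its role in appetite, stood at 15, 14.9 and 12.2 CPM against 4.19, 3.88 and 4.41 CPM. Its decrease was 1.75 on the log2 scale (SE 0.12, edgeR adjusted p = 7.26e-05). Ntsr2 and Npy2r, receptors for neurotensin and neuropeptide Y, were at 46.9% and 52.04% of their Control means. The remaining 3 members called lower were Hcrtr1, Ghsr and Oxtr, receptors for orexin, ghrelin and oxytocin, with log2 fold changes of -0.93, -1.36 and -0.58. The calls of Sstr4, Sstr3, Npsr1, Mc4r, Ntsr2 and Npy2r held without any 1 library. Oxtr lost its call whichever library was left out, Ghsr without cKO replicate 1 or Control replicate 2, and Hcrtr1 without cKO replicate 1.

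Receptors for monoamines and acetylcholine followed, with 7 lower and 1 higher of 45 tested and a list median of -0.19. The shares were 15.6% and 2.22%, against 2.0% and 0.744% of all tested genes. Htr1a, the inhibitory serotonin receptor dense in CA1, stood at 41.4, 44.99 and 38.95 CPM in Control and 13.9, 15.6 and 16.2 CPM in cKO. It fell by 1.46 on the log2 scale (SE 0.10, edgeR adjusted p = 7.51e-05). The serotonin receptor genes Htr5b, Htr2a and Htr1b had log2 fold changes of -1.25, -0.78 and -0.60. Chrm3 and Chrm5, muscarinic acetylcholine receptors, and Adra2a, an adrenergic receptor, had log2 fold changes of -0.48, -0.86 and -0.62. Htr1a and Htr5b kept their calls without any 1 library. The count of lower members was 2 without cKO replicate 1, 4 without cKO replicate 2 and 4 without Control replicate 2. The 1 member called higher was Chrna1, a nicotinic subunit at 2.51 ± 0.207 CPM in Control and 3.92 ± 0.199 CPM in cKO (SD, n = 3), whose call was lost without any of 5 libraries, all but cKO replicate 3.

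Among 23 neuropeptide and granin genes tested, 5 fell and none rose, a share of 21.7% lower, with a list median of -0.22 and a positive fold change in 5 members. Pdyn, the precursor of the dynorphins, stood at 9.23, 8.79 and 9.11 CPM in Control and 3.98, 2.88 and 4.67 CPM in cKO and fell by 1.24 on the log2 scale (SE 0.16, edgeR adjusted p = 0.00309). Penk, the precursor of the enkephalins, stood at 34.7, 34.5 and 31.7 CPM against 20.96, 19.8 and 22.04 CPM, and Cck, cholecystokinin, at 145, 143 and 132 CPM against 89.4, 96.8 and 95.4 CPM. All 3 cKO libraries were below all 3 Control libraries for each of these genes, and their calls held without any 1 library. The calls of Vgf (-0.53) and Chgb (-0.46), which encode proteins of dense-core vesicles, did not: 3 members remained lower without cKO replicate 1, without cKO replicate 2 or without Control replicate 2. In the cyclic GMP list 2 of 19 members fell (10.5%, against 2.0% of all tested genes), Npr1 and Nppc. Nppc encodes C-type natriuretic peptide and stood at 3.804, 3.72 and 3.53 CPM in Control and 1.38, 2.06 and 1.25 CPM in cKO (log2 fold change -1.23 ± 0.18, edgeR adjusted p = 0.00738). Without cKO replicate 1 the call of Nppc was lost.

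**Figure D3:**
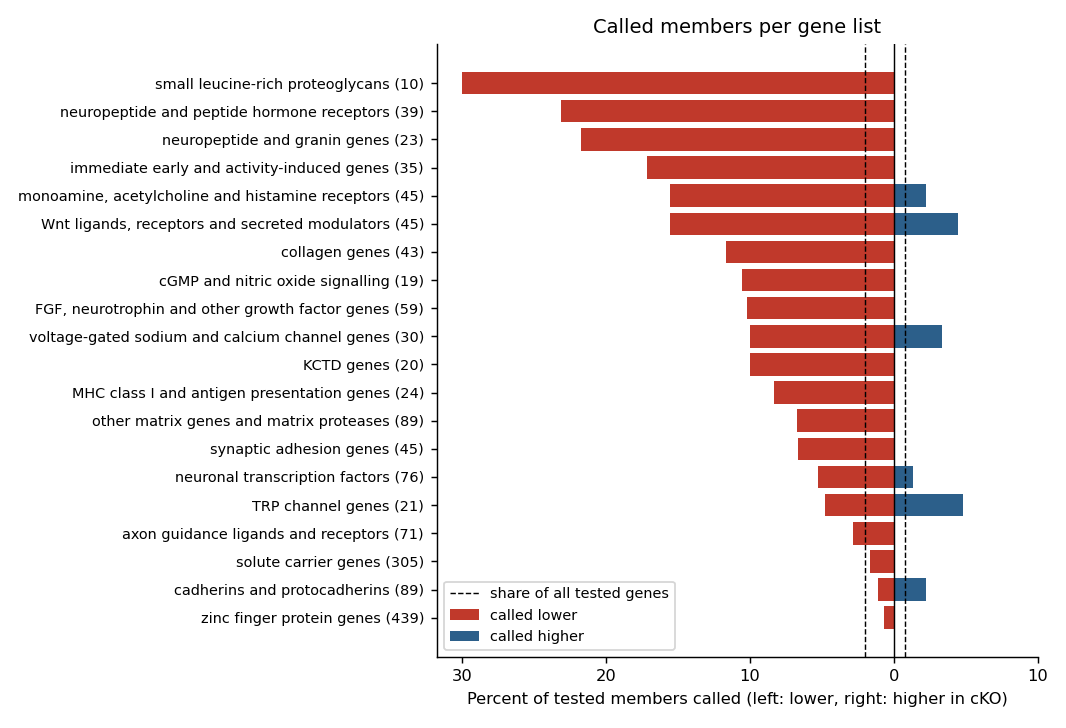
Percent of the tested members of each gene list called lower (red, to the left) or higher (blue, to the right) in neuron RNA, for functional lists of named families with at least 2 called members; the number of tested members is in brackets and the dashed lines mark the shares of all tested genes, 2.0% and 0.744%. Proteoglycans, peptide receptors and peptides stand at the top with 30%, 23.1% and 21.7% of members lower, and zinc finger genes at the bottom. The lists were chosen with earlier results of these data known.

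Genes of the extracellular matrix formed a further class. Of 10 tested small leucine-rich proteoglycan genes 3 fell and none rose, a share of 30% lower against 2.0% of all tested genes. Besides Ogn these were Dcn, decorin, and Ecm2. Dcn stood at 39.1, 40.8 and 47.7 CPM in Control and 9.803, 12.6 and 11.4 CPM in cKO and fell by 1.92 on the log2 scale (SE 0.12, edgeR adjusted p = 4.83e-05), and Ecm2, which lies beside Ogn on chromosome 13, stood at 6.75, 8.92 and 9.51 CPM against 2.79, 2.49 and 2.83 CPM (log2 fold change -1.63 ± 0.15, edgeR adjusted p = 4.80e-04). Of 43 collagen genes 5 fell (11.6%) and none rose: Col15a1 (-1.71), Col22a1 (-1.39), Col11a1 (-1.03), Col18a1 (-0.80) and Col12a1 (-0.62, all log2 fold changes). Col11a1, a fibrillar collagen, was the most abundant of them, at 153, 133 and 171 CPM in Control and 80.6, 75.2 and 67.8 CPM in cKO. Of 89 other matrix and matrix protease genes 6 fell (6.74%), led by Adamts1, a secreted metalloprotease at 21.5, 18.9 and 21.4 CPM in Control and 7.55, 8.62 and 8.44 CPM in cKO, and by Fbn2, fibrillin 2, at 56.1% of its Control mean. The 3 proteoglycan calls held without any 1 library. For collagens 5 to 7 members were lower when 1 library was left out, although Col18a1 lost its call without cKO replicate 2, and for the other matrix genes the count was 2 without cKO replicate 1, 2 without cKO replicate 2 and 3 without Control replicate 3. Matrix genes are also made by fibroblasts and vessel cells. The fibroblast markers summed to 4.38 to 5.72 CPM in Control and 4.32 to 4.44 CPM in cKO with 0 of 5 called by edgeR (0 at an unadjusted p under 0.05, 0 by DESeq2), the mural cell markers to 11.6 to 13.9 and 13.6 to 14.6 CPM with 0 of 4 called (0 at an unadjusted p under 0.05, 0 by DESeq2), and their part in the result was not tested.

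Secreted signals and their receptors changed in both directions in the Wnt list, where 7 members were lower and 2 higher of 45 tested. The shares were 15.6% and 4.44%, against 2.0% and 0.744% of all tested genes. Wnt3a, a ligand of the canonical pathway, had 37, 22 and 25 reads in the Control libraries and 1, 0 and 0 in the cKO libraries. Pooled over the 3 libraries of each label, its CPM in cKO was 0.0123 times that in Control (95% interval 0.00031 to 0.0702, exact binomial, for counting error only). Fzd10, a frizzled receptor, stood at 4.88, 5.01 and 3.12 CPM in Control and 1.71, 1.51 and 1.35 CPM in cKO and fell by 1.5 on the log2 scale (SE 0.20, edgeR adjusted p = 0.00371). The ligand Wnt2 (-0.94), the receptors Fzd8 (-0.88) and Lgr6 (-0.85), the secreted inhibitor Frzb (-0.46) and the ligand Wnt11 (-1.14) were the other lower members. Wnt10b, another ligand, stood at 3.06, 2.42 and 2.09 CPM in Control and 6.23, 4.02 and 5.87 CPM in cKO, and its call was lost without cKO replicate 1, without Control replicate 2 or without Control replicate 3. Wnt5a, a non-canonical ligand, stood at 15.3, 19.03 and 16.9 CPM against 23.8, 25.7 and 23.1 CPM and lost its call without any of 4 libraries (cKO replicates 1 and 2, Control replicates 1 and 3). Between 5 and 6 members stayed lower when 1 library was left out. Fst, the activin-binding follistatin, was the 1 member called among 45 TGF-beta and BMP genes, with a log2 fold change of -1.48 ± 0.22 (edgeR adjusted p = 0.00641). That share of 2.22% lower was near the 2.0% of all tested genes. Of 59 growth factor genes 6 fell (10.2%), but 0 remained without cKO replicate 1 or without cKO replicate 2, 1 without Control replicate 2 and 2 without Control replicate 3. Fgfr1, a receptor for fibroblast growth factors, and Vegfa, vascular endothelial growth factor, were at 68.5% and 74.6% of their Control means.

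Of 76 transcription factor genes of neurons 4 fell (5.26%, against 2.0% of all genes) and 1 rose (1.32%, against 0.744%). Zbtb20, a zinc finger factor needed for the formation of CA1, had the highest Control level of all called genes, at 563, 541 and 606 CPM in Control and 279, 249 and 301 CPM in cKO. It fell by 1.04 on the log2 scale (SE 0.10, edgeR adjusted p = 7.40e-04). Besides Zbtb20 and Neurod6, Neurog2 (-1.14), a proneural factor at 1.35 ± 0.213 CPM in Control (SD, n = 3), and Bhlhe40 (-0.57), a clock-related repressor, were lower. Tox3, an HMG-box factor, was the 1 member called higher (0.56), a call lost without cKO replicate 1, cKO replicate 2, Control replicate 2 or Control replicate 3. Zbtb20 and Neurod6 were the 2 that remained lower without cKO replicate 1, without cKO replicate 2 or without Control replicate 3. The large family of zinc finger genes had 3 lower and none higher of 439 tested, a share of 0.683% that lay under the 2.0% of all genes. Of the lower ones 1 remained without cKO replicate 1, cKO replicate 2 or Control replicate 3. The uncalled members leaned upward. Fold changes were positive in 291 of the 439 and negative in 148, with a list median of 0.07 against 0.02 over all genes. At an unadjusted p under 0.05, 30 were higher and 12 lower.

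Channels and synaptic genes differed by list. Of 30 voltage-gated sodium and calcium channel genes 3 fell, 10% against 2.0% of all genes. Scn3b, an auxiliary sodium channel subunit, stood at 516, 515 and 497 CPM in Control and 325, 303 and 332 CPM in cKO and fell by 0.67 on the log2 scale (SE 0.09, edgeR adjusted p = 0.00345). Scn4b, a related subunit, and Cacna1g, a T-type calcium channel, were at 63.9% and 64% of their Control means, but without cKO replicate 1 only Scn3b kept its call among the 3. Cacna2d4, an auxiliary calcium channel subunit with 0.572 ± 0.114 CPM in Control, was called higher and lost that call without any 1 library. Kcnn3, a calcium-activated potassium channel, was 1 of 77 potassium channel genes called, at 37.2, 35.2 and 37.8 CPM in Control and 22.4, 22.6 and 24.6 CPM in cKO, and 3 were called without Control replicate 1 and 2 without Control replicate 3. DESeq2 called 6 potassium channel genes lower. Nptx2, a secreted pentraxin that gathers AMPA receptors, was the 1 called member of 20 AMPA receptor genes, at 37.5, 33.1 and 29.5 CPM in Control and 14.6, 14.1 and 17.8 CPM in cKO (log2 fold change -1.10 ± 0.12, edgeR adjusted p = 0.00134). In that list 8 members were lower at an unadjusted p under 0.05, and DESeq2 called 7 lower. No NMDA receptor subunit (0 of 7), kainate or delta receptor subunit (0 of 9) or postsynaptic scaffold (0 of 26) was called by edgeR, with 2, 2 and 3 members at an unadjusted p under 0.05 and 1, 0 and 2 called by DESeq2. Of 45 synaptic adhesion genes 3 fell (6.67%), the largest change being in Slitrk6, a transmembrane protein of the Slit and Trk-like family, at 3.44, 4.19 and 3.24 CPM in Control and 1.22, 0.935 and 0.945 CPM in cKO. That list held 1 lower member without cKO replicate 1, without cKO replicate 2 or without Control replicate 2, and 5 without Control replicate 1. Hpca, hippocalcin, a calcium sensor, was among the 4 most abundant lower genes with 589, 548 and 552 CPM in Control and 391, 418 and 423 CPM in cKO, as was Flna, the actin crosslinker filamin A, with 529, 439 and 503 CPM against 314, 256 and 289 CPM. Hpca lost its call without any of 5 libraries (all but Control replicate 1), while Flna and Scn3b kept theirs. Slc9a4, a sodium/proton exchanger, and Slc38a5, an amino acid transporter, led the 5 of 305 solute carrier genes that fell, a share of 1.64% that was near the 2.0% of all genes. Slc9a4 was at 41.99% and Slc38a5 at 12.6% of its Control mean. Without cKO replicate 2 there were 3 lower solute carrier genes.

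Activity-induced genes had 6 lower and no higher members of 35 (17.1% lower, against 2.0% of all tested genes), with a list median of -0.23. Besides Nptx2 the called members were Ier2, Ptgs2, Dusp5, Dusp6 and Gadd45g, with log2 fold changes from -0.97 to -0.57. Ptgs2, cyclooxygenase 2, stood at 39.5, 61.6 and 47.3 CPM in Control and 30.02, 27.7 and 23.8 CPM in cKO. The classic early genes were not called, and they differed among the libraries labelled cKO. Arc, which encodes a synaptic capsid-like protein, stood at 95.05, 91.5 and 90.5 CPM in Control and at 30.9, 48.5 and 91.3 CPM in cKO. Egr1 stood at 57.7, 59.5 and 61.8 CPM against 25.96, 45.4 and 67.2 CPM, Fos at 2.66, 4.24 and 5.38 CPM against 1.37, 3.38 and 6.26 CPM and Junb at 39.6, 36.3 and 34.2 CPM against 19.2, 26.8 and 32.8 CPM. In each of these 4 genes cKO replicate 1 was the lowest and cKO replicate 3 the highest of its group, and cKO replicate 3 lay within the Control range for Arc, above it for Egr1 and Fos and just below it for Junb. Without cKO replicate 3 there were 9 lower members. The count was 2 without cKO replicate 1, 2 without cKO replicate 2, 3 without Control replicate 2 and 1 without Control replicate 3. Bdnf, the neurotrophin, stood at 31.01 ± 2.43 CPM in Control and 27.04 ± 3.82 CPM in cKO (SD, n = 3) and was not called.

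The lists of genes used by every cell held no call. None of 83 cytosolic ribosomal protein genes and none of 77 nuclear-encoded oxidative phosphorylation genes passed the edgeR test, with 25 and 7 at an unadjusted p under 0.05 and 0 and 0 called by DESeq2. These 25 ribosomal genes all had negative fold changes, as did 6 of the 7 others. In 43 of the 83 ribosomal genes every cKO library was below every Control library (12.4% of all tested genes did so), and their summed level was 2441 to 2611 CPM in Control and 2287 to 2365 CPM in cKO. The list medians were -0.16 and -0.04.

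Markers of hippocampal cell types moved as well. Of the CA1 markers 42.9% and of the dentate markers 62.5% were called lower, in short lists, against 2.0% of all tested genes. Of 7 CA1 pyramidal markers 3 fell: Wfs1, wolframin of the endoplasmic reticulum, at 151, 142 and 129 CPM in Control and 65.2, 62.6 and 67.5 CPM in cKO, Spink8, a protease inhibitor gene, at 12.1, 15.3 and 13.1 CPM against 5.58, 5.57 and 5.599 CPM, and Lefty1, a nodal antagonist, at 10.3, 9.51 and 9.04 CPM against 4.52, 4.26 and 5.21 CPM. All 3 calls held without any 1 library. Other CA1 markers were nearer to Control, with Fibcd1 at -0.08, Mpped1 at -0.08 and Pou3f1 at -0.24 on the log2 scale, and these 3 were not called. Of 8 dentate granule markers 5 fell, led by Lct, the lactase gene, at 40.9, 37.4 and 34.5 CPM in Control and 12.8, 10.7 and 14.9 CPM in cKO (log2 fold change -1.56 ± 0.13, edgeR adjusted p = 2.95e-04). Prox1, the transcription factor that defines granule cells, stood at 74.5, 79.5 and 71.7 CPM in Control and 66.5, 73.9 and 82.1 CPM in cKO and was not called (-0.02 ± 0.10, edgeR adjusted p = 0.9304). The dentate count was 1 without cKO replicate 1, cKO replicate 2 or Control replicate 2 and 2 without Control replicate 3. Summed over each list, the CA1 markers were at 657.0 to 746.6 CPM in Control and 544.0 to 615.9 CPM in cKO, and the dentate markers at 283.2 to 310.2 and 194.8 to 244.4 CPM. The labels were also apart for CA2 (165.3 to 185.8 and 143.7 to 154.0), CA3 (208.6 to 216.1 and 177.0 to 205.8), mossy cell (27.76 to 34.25 and 22.04 to 24.96) and subiculum markers (117.5 to 131.7 and 86.05 to 103.4 CPM). The sums of pan-neuronal and Cajal-Retzius markers overlapped. Sums apart between the labels were not particular to cell type markers. Those of ribosomal protein genes (2441 to 2611 and 2287 to 2365 CPM) and RGS genes (935.0 to 958.2 and 884.6 to 930.7 CPM) were apart too. Those of potassium channel genes (6164 to 6545 and 6002 to 6368 CPM) overlapped. Such sums weigh abundant members most. edgeR called 1 of 5 CA2 markers lower and none of 4 subiculum markers. Excitatory markers summed to 2951 to 3520 CPM in Control and 2585 to 2951 CPM in cKO, with Neurod6 and Nrgn, which encodes neurogranin, called lower among 7 (Nrgn lost its call without any 1 library) and Slc17a7, the vesicular glutamate transporter, at 1506, 1316 and 1220.0 CPM against 1201, 1230.0 and 1432 CPM. None of the markers of CA3 cells (6 tested), mossy cells (4), inhibitory neurons (10), astrocytes (8), oligodendrocytes (8) or microglia (8) was called by edgeR. At an unadjusted p under 0.05 there were 4, 1, 0, 2, 0 and 0 of them, and DESeq2 called 3, 1, 0, 1, 0 and 0. The sums of inhibitory markers overlapped between the labels. Kl, klotho, a marker of the choroid plexus that neurons also express, was at 28.2, 28.6 and 26.1 CPM in Control and 13.02, 12.3 and 14.1 CPM in cKO, while Foxj1 of ependymal cells was at 0.9997 ± 0.212 and 0.827 ± 0.272 CPM (SD, n = 3) and the other markers of that list were too low to be tested. In bulk RNA, fewer cells of a type and less RNA of these genes per cell cannot be told apart.

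Genes higher in the libraries labelled cKO were mostly of low abundance. Trpa1, an irritant-gated cation channel known from sensory neurons, changed most among those with an average log2 CPM of at least 1. It stood at 1.59, 1.43 and 1.55 CPM in Control and 11.7, 11.3 and 13.5 CPM in cKO, a rise of 2.99 ± 0.12 (log2 ± SE, edgeR adjusted p = 1.04e-05). The next 9 genes by size rose by 0.98 to 1.24 on the log2 scale. They were the long non-coding or unnamed transcripts Gm37120, Gm29681, Gm3693 and Gm38248, the C1q and TNF family gene C1qtnf6, Wnt10b, the spectrin gene Sptbn5, the lysophospholipid receptor gene Gpr55 and the sulfotransferase gene Sult5a1. Without cKO replicate 1 the calls of Gm38248, Gpr55 and Sult5a1 were lost, and that of Sult5a1 also without Control replicate 2 or Control replicate 3. Sptbn5 stood at 3.32, 2.26 and 2.88 CPM in Control and 5.71, 5.35 and 6.49 CPM in cKO. Of the 4 most abundant higher genes, Wdr17, a WD40 repeat gene, kept its call without any 1 library, at 68.9, 77.5 and 78.1 CPM in Control and 163, 145 and 135 CPM in cKO (0.98 ± 0.10, edgeR adjusted p = 8.32e-04). Nnat, an imprinted neuronatin gene (0.44), Uvssa, a DNA repair gene (0.52), and Pik3r3, a regulatory subunit of phosphoinositide 3-kinase (0.43), were the other 3, and each lost its call without any of at least 4 libraries. Of the clustered protocadherins Pcdhga4 and Pcdhga6 rose by 0.73 and 0.68. These genes share exons, so their reads could have been split between them, and Pcdhga4 lost its call without cKO replicate 1 or Control replicate 3.

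Only 8 of the 146 higher genes and 88 of the 393 lower genes belonged to a functional list with a named family, of 2133 list members tested. By RefSeq type, 84.2% of the lower and 58.9% of the higher genes were protein-coding, against 75.9% of the genes tested. Long non-coding RNAs made up 8.14% of the lower, 21.9% of the higher and 7.28% of the tested genes, and symbols without a RefSeq entry 5.09%, 18.5% and 11.98%. In transcripts that carry only a gene-model name, 62 were lower and 56 higher of 4563 tested. These shares of 1.36% and 1.23% lay under the 2.0% and above the 0.744% of all tested genes. Their median log2 fold change was 0.18 against 0.02 over all genes. At an unadjusted p under 0.05 in edgeR's test, 713 were higher and 220 lower. The kit named in the shared protocol is unstranded. With such a kit, reads of a transcript that overlaps another gene cannot be assigned to a strand. Without cKO replicate 1 there were 33 lower and 7 higher gene models, without cKO replicate 2 there were 32 and 22, without Control replicate 3 there were 32 and 14, and the higher ones numbered 20 without Control replicate 2 and 36 without Control replicate 1.

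The called genes differed in their Control level. The median Control level was 10.2 CPM for lower genes (quartiles 3.82 and 40.9), 3.03 CPM for higher genes (quartiles 1.28 and 8.49) and 10.5 CPM for all tested genes (quartiles 1.09 and 50.3). Genes under 1 CPM in Control made up 6.87% of the lower, 21.9% of the higher and 24.02% of all tested genes. Genes of at least 100 CPM made up 11.96% of the lower and 13.25% of all tested genes, and none of the higher genes reached that level. Their highest was 80.2 CPM, against 569.8 CPM among the lower genes. In the cKO libraries the median of the lower genes was 5.57 to 5.62 CPM and that of the higher genes 5.25 to 5.48 CPM. Over all tested genes it was 10.36 to 10.67 CPM there. The Control libraries also made the calls, which favours high Control levels among lower genes and low ones among higher genes. The Control medians and shares are therefore partly the fold change again. Since CPM does not account for length, the levels were also taken per kilobase of the RefSeq gene span, introns included. The medians were then 0.626 for lower, 0.136 for higher and 0.730 for all tested genes. The median span was 15.3 kb for lower, 31.9 kb for higher and 21.3 kb for all tested genes.

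Split into 5 equal groups by average level (quintiles, numbered from the lowest), 2.96% of genes in quintile 2 and 3.11% in quintile 3 were lower, against 0.764% in the lowest and 1.48% in the highest. For higher genes the shares were 1.56% and 1.38% in quintiles 2 and 3, 0.357% in the lowest and 0.0764%, which is 3 genes, in the highest. The median log2 fold change of lower genes shrank from -1.87 in the lowest quintile to -0.62 in the highest. The smallest change that passes the test depends on the level, so these shares do not compare true rates of change. In the lowest quintile the share of lower genes was 0.0752% without cKO replicate 1, 0.125% without cKO replicate 2, 0.473% without Control replicate 1, 0.274% without Control replicate 2 and 0.25% without Control replicate 3. The share of lower genes in the highest quintile went from 1.48% to 0.551% (without cKO replicate 1), 0.624% (without cKO replicate 2), 0.946% (without Control replicate 2) or 0.849% (without Control replicate 3). For higher genes the share in the lowest quintile was 0.0749% without cKO replicate 2 and 0.0249 to 0.05% without cKO replicate 1 or any 1 Control library, and in the highest it was 0.0501% without cKO replicate 1 and 0.0249 to 0.025% without cKO replicate 2, Control replicate 2 or Control replicate 3.

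**Figure D4:**
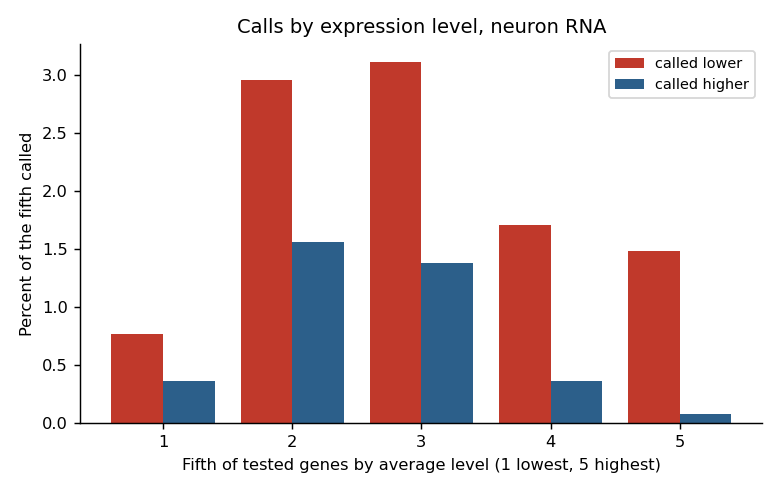
Percent of genes called lower (red) and higher (blue) in each quintile of the 19622 tested genes, ordered by average log2 CPM over the 6 neuron libraries. Both directions peak in quintiles 2 and 3, and in the highest 1.48% are lower and 0.0764% higher.

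The changes were then set beside RNA of the whole CA region, which holds glia and vessels as well as neurons and comes from 6 libraries of each label with 14878128 to 20100286 counts. Of the 393 lower genes 351 could be tested there, and 175 were lower in that material too. That is 44.5% of the neuron list and 40.9% of the 428 genes called lower in whole CA RNA, where 4.17% of 15362 tested genes were called, 2.79% lower and 1.38% higher. None was called in the opposite direction. Of the 146 higher genes 111 could be tested and 31 were also higher, which is 21.2% of the neuron list and 14.6% of the 212 genes called higher there. The median of the 351 lower genes was -0.83 in neuron RNA, which chose them, and -0.44 in whole CA RNA, and for the 111 higher genes the medians were 0.64 and 0.37. Kctd4 (-2.27), Sstr4 (-1.57), Htr1a (-1.64), Neurod6 (-1.78), Dcn (-2.25) and Lgi1 (-1.41), which encodes a secreted synaptic protein linked to epilepsy, were among those with large log2 decreases in whole CA RNA, and Trpa1 rose there by 2.28 (edgeR adjusted p = 2.31e-04).

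For a small group the effect differed between the materials. The interaction of genotype and material was called for 28 of 17523 genes (0.16%), 23 of them (0.131%) with a more negative and 5 (0.0285%) with a more positive effect in neuron RNA. The 5 became 1 without Control replicate 1, 2 without cKO replicate 1, cKO replicate 2 or Control replicate 2, and 3 without cKO replicate 3. Ogn had a log2 fold change of -3.45 in neurons and of -0.30 in whole CA RNA, a difference of -3.13 ± 0.47 (edgeR adjusted p = 0.00131). Npr1 had -2.87 and -0.65 (edgeR adjusted p of the difference = 3.30e-05) and Capn3 -2.18 and -0.58 (edgeR adjusted p = 4.32e-05). Ntsr2, which astrocytes also express, fell by 1.09 in neurons and had -0.08 in the whole region (edgeR adjusted p of the difference = 4.80e-05). All other cell types of the region add RNA to the whole CA libraries. The materials also differed in mitochondrial genes, which took 3.41 to 7.05% of the counts in whole CA RNA and 0.0081 to 0.0144% in neuron RNA. The part of either in these differences was not tested.

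H3K4me3 was measured by the study in sorted neuronal nuclei from the same genotypes, in 4 libraries of each label. These are separate from the RNA libraries that chose the genes, but whether they come from other animals is not known. The length covered by the authors' H3K4me3 peaks was summed over each gene span with 2500 bp on either side. Over the 373 lower genes with a span, the median was 2795, 2937, 3015 and 3001 bp in the Control libraries and 1922, 2353, 2227 and 2189 bp in the cKO libraries. Over the 119 higher genes it was 1732, 1849, 1935 and 2045 bp in Control and 1736, 2069, 2026 and 2072 bp in cKO. Over the 16780 genes called in neither direction it was 2395 to 2508 bp in Control and 2075 to 2356 bp in cKO. So the labels did not overlap for the lower genes or for the genes not called, and they overlapped for the higher genes. In 187 of the 373 lower genes (50.1%) all 4 cKO libraries were below all 4 Control libraries. The same held for 27.9% of the 17272 tested genes with a span and for 16 of the 119 higher genes (13.4%). All 4 cKO libraries were above in 5 of the higher genes (4.20%) and in 0.961% of all genes with a span. The groups started from different lengths, with median Control values of 2968 bp for lower, 1812 bp for higher and 2466 bp for uncalled genes. They were not matched for this length, so gaps and shares are not compared at equal length. The peaks covered 47.4 to 51.2 Mb in all in the Control libraries and 39.6 to 49.2 Mb in the cKO libraries. The headers list 1 input library for all peak calls of a genotype, and an effect of that input cannot be told apart from one of genotype.

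**Figure D5:**
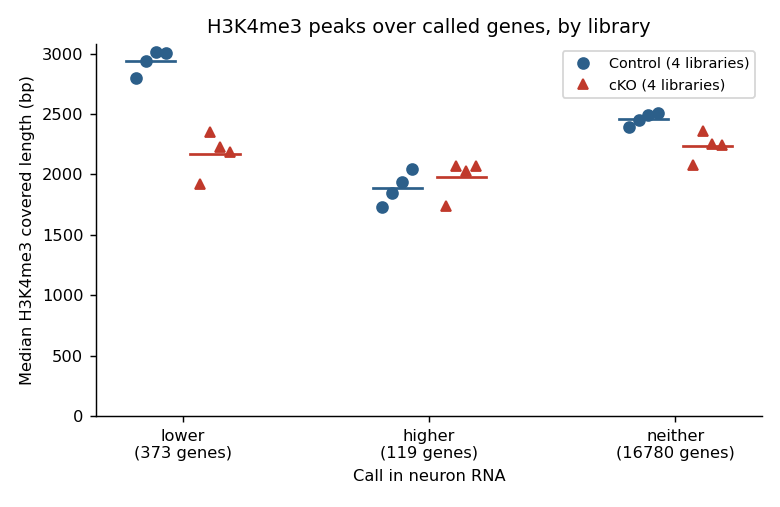
Median length covered by H3K4me3 peaks over gene spans with 2500 bp on either side, in each of 4 Control (circles) and 4 cKO (triangles) libraries, for genes called lower, higher or neither in neuron RNA; short lines are means of the 4 libraries. The lower genes lie at 2795 to 3015 bp in Control and 1922 to 2353 bp in cKO. This is a wider gap in bp than for the other groups, whose Control lengths are shorter.

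Among the named genes the covered length ranged widely. It sums all peaks over a gene span, so it is not the width of 1 domain and can be larger in long genes. Zbtb20 spans 758704 bp, Neurod6 3446 bp and Htr1a 4441 bp. Kctd4 had 5714, 6032, 6006 and 6019 bp in Control and 1956, 2623, 3048 and 2334 bp in cKO, Neurod6 6231, 6266, 6361 and 6800 bp against 2346, 2918, 3272 and 2887 bp and Zbtb20 25305, 25128, 26642 and 27935 bp against 11678, 14697, 14993 and 15451 bp. Sstr4 had 4537, 4601, 4482 and 4623 bp against 2138, 3067, 3057 and 3033 bp and Htr1a 5127, 4792, 5138 and 4701 bp against 1963, 2021, 2670 and 2389 bp. In these 5 genes all cKO libraries were below all Control libraries. Npr1, with a larger fold change in RNA than any of them, had 1658, 1780, 1642 and 1822 bp in Control and 1708, 1697, 2140 and 1906 bp in cKO, and Wnt3a 3107, 2847, 3383 and 3625 bp against 2658, 3516, 3313 and 3121 bp, and both overlapped between the labels. Ogn had 201, 0, 257 and 405 bp in Control and no peak in any of the 4 cKO libraries, nor in Control replicate 2. Trpa1 had 669, 775, 1189 and 776 bp in Control and 1151, 1332, 1145 and 1161 bp in cKO, with overlap. Over Setd1b itself the covered length was 8820, 8709, 8651 and 9170 bp in Control and 6222, 7140, 6891 and 6999 bp in cKO, without overlap.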

How the data were processed

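Neuron RNA was analysed in 3 libraries labelled cKO and 3 labelled Control, with whole CA RNA (6 and 6) and neuron H3K4me3 peaks (4 and 4) for comparison. The deposited RNA files hold raw whole-number counts per Ensembl gene ID. The builds mm10 and GRCm38 and the tools SAMtools and MACS2 are named in the submitters' processing notes; the aligner and the counter are not given in the sources used here. H3K4me3 peaks were called per library with MACS 2.1.1.20160309, per the file headers, and only the deposited peak positions were used (the other histone marks were not used here). Symbols matched 99.3% of the IDs.

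Counts were tested with edgeR 4.0.16 (R 4.3.3), quasi-likelihood, TMM factors, filterByExpr and Benjamini-Hochberg adjustment over all tested genes. DESeq2 1.42.0 was an alternative. The edgeR test was checked on simulated counts with 40 genes changed at each size. It recovered 95% at a log2 fold change of -2, 65% at -1, 62.5% at 1, 20% at -0.5 and 22.5% at 0.5. It also made 13 false calls. Many small changes can thus go uncalled. CPM are on TMM-adjusted library sizes. Positions, types and spans come from RefSeq GRCm38.p6 by symbol (88.0% of tested genes). The script pattern for gene-model names was corrected after it was seen to match named families. Named genes were Setd1b; from calls without overlap whose average log2 CPM reached 1, the 14 largest decreases and 10 largest increases; the 4 most abundant called genes per direction; up to 6 called members per list and direction; and uncalled members by value. Wnt3a's reads, the H3K4me3 lengths and the last called members of lists were added after seeing values. The members and lists were chosen with earlier results of these data known. Same-numbered libraries were not treated as pairs. As a check for a library deposited more than once, libraries of 1 group were compared, and no pair agreed within counting noise (mean chi-square per gene 15.7 to 69.5); this does not show that they are separate animals. One marker gene is not reported here.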

Additional observations from a re-analysis of the deposited data

Results flagged for a closer look

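The difference between the genotype effect in neuron RNA and that in whole CA RNA passed the interaction test in edgeR (adjusted p under 0.05) for 12 of the genes named. All had a more negative effect in neuron RNA. Most named genes were chosen for a decrease in these same neuron libraries, which favours that direction. Over all tested genes 23 interactions were more negative and 5 more positive. On the log2 scale the difference was -3.13 for Ogn, -2.42 for Slc38a5, -2.22 for Npr1, -1.59 for Capn3, -1.56 for Ecm2, -1.49 for the adhesion receptor gene Adgrf5, -1.11 for Col15a1, -1.03 for Fxyd1, -1.001 for Ntsr2, -0.96 for Nptx2, -0.76 for Adamts1 and -0.71 for Lgi3. In whole CA RNA these genes had log2 fold changes from -0.65 (Npr1) to 0.02 (Adgrf5).

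In the H3K4me3 data, cKO replicate 1 had a median covered length of 1736 bp over the higher genes, against 2026 to 2072 bp in the other 3 cKO libraries. Its gap to the nearest of the others was 0.863 of the range of the group, and chance flags about 1 in 20 such groups of 4. Its peaks covered 39.6 Mb in all, the least of the 8 libraries.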

How the results depend on the processing

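Scaling hardly moved the counts of called neuron genes (393 lower and 146 higher): RLE factors gave 394 and 145 and library size only 375 and 160. DESeq2 called 591 lower and 230 higher genes, and the higher genes had a median Control level of 5.33 CPM and the lower of 19.2 CPM in that set. An adjusted p under 0.1 gave 613 and 317 genes, and an adjusted p under 0.05 with a log2 fold change of at least 1 in size gave 161 and 39, with median levels of 4.23 and 0.572 CPM. Leaving out 1 library in turn gave 186 to 364 lower and 21 to 118 higher genes, with median levels of 9.83 to 12.9 and 2.37 to 4.78 CPM. Per kilobase of span the medians were 0.626 and 0.136. For whole CA RNA, replicates 1 to 3 only gave 149 lower and 58 higher genes, replicates 4 to 6 only 182 and 42, and DESeq2 called 334 higher genes. For the interaction, no filter gave 50 negative and 19 positive genes, and leaving out 1 neuron library gave 16 to 22 negative and 1 to 4 positive genes. The sign of the Setd1b difference held under all alternatives (0.17 to 0.40).

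The replicate numbers are shared between the labels, but same-numbered neuron libraries did not deviate together (correlations -0.057, 0.286 and -0.0039), so they share only a number, and not every library correlated best with its own number. With the replicate block 268 genes were lower and 59 higher, with median levels of 12.9 and 2.95 CPM. For Setd1b the block gave 0.26 (exact sign-flip test over 3 pairs, p = 0.5, where 0.25 is the smallest possible).

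Of 155 called genes that were examined one by one, 80 kept their call under every alternative that tested them and 75 lost it under at least 1. None of these called genes changed direction. Among genes that were not called, the log2 fold change changed sign when 1 library was left out for Prox1 (-0.10 to 0.052), Fibcd1 (-0.17 to 0.020), Slc17a7 (-0.15 to 0.021), Setd1a (-0.15 to 0.045) and Fos (-0.79 to 0.23). For H3K4me3, alternatives chosen after seeing the data kept the median difference over lower genes between -585.5 and -386.0 bp, while that over higher genes was 39.8 bp and became -27.5 bp without cKO replicate 2; the cause was not tested.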

Other observations

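Several small families stood out only when the called genes were read, and they were gathered by symbol after their values were seen, so their counts carry no test. Picking families for their calls raises their shares. Called lower were 75% of LGI, 50% of FXYD, 60% of C/EBP and 28.6% of kallikrein genes, against 2.0% of all tested genes. Of 4 LGI genes, which encode secreted proteins of synapses and axons, 3 were called lower: Lgi1 at 155, 183 and 169.9 CPM in Control and 64.7, 64.5 and 61.6 CPM in cKO, Lgi3 at 152, 140.5 and 128 CPM against 73.03, 63.8 and 72.4 CPM and Lgi4 at 1.21 ± 0.161 CPM against 0.5496 ± 0.155 CPM (SD, n = 3). Of 6 FXYD genes, small regulators of the sodium pump, 3 were called lower, with Fxyd7 at 21.2, 18.7 and 19.6 CPM against 7.19, 9.68 and 8.399 CPM and Fxyd5 at 21.8, 15.9 and 18.5 CPM against 7.52, 8.31 and 6.85 CPM. Of 5 C/EBP transcription factor genes 3 were called lower, Cebpd (-1.35), Cebpa (-1.37) and Cebpb (-0.74, log2 fold changes), and 2 of 7 kallikrein protease genes, Klk8 (-1.27) and Klk7 (-1.27). Lgi4, Cebpb and Klk7 lost their calls without cKO replicate 2, among other libraries, and Fxyd1 without cKO replicate 1. Among 103 further G protein-coupled receptor genes taken by symbol, 10 were called lower and 1 higher (Gpr55, whose call was lost without cKO replicate 1). These are 9.71% and 0.971%, against 2.0% and 0.744% of all tested genes. Gpr22, an orphan receptor, stood at 133, 226 and 180.3 CPM in Control and 69.99, 74.4 and 61.3 CPM in cKO, Rxfp1, the relaxin receptor, at 74.8, 124 and 108 CPM against 38.6, 45.1 and 35.2 CPM and Mas1, a receptor for an angiotensin peptide, at 58.1% of its Control mean.

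Some called genes were neighbours. Among 492 called genes with a RefSeq position, 48 pairs lay within 100 kb of each other. Of these, 38 went in the same direction (33 both lower, 5 both higher) and 10 in opposite directions. Of all calls 72.9% were lower, and such pairs were not counted among all tested genes. Whether called genes were neighbours, or shared a direction, more often than that gives was not tested. Fxyd5, Fxyd7, Fxyd1 and Lgi4 follow each other on chromosome 7 between 31032723 and 31070935 (GRCm38), and all 4 were called lower. Ecm2 and Ogn, Sstr4 and Thbd, Klk8 and Klk7, and Slc27a3 and Npr1 were other lower pairs. Where genes overlap, reads could have been assigned to either. Within 5 Mb of Setd1b, 1 of 117 tested genes was called lower and 0 were called higher, against 2.0% and 0.744% of all tested genes.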
